A study of Mus musculus with 8 samples.

Results

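The Hippo pathway components and YAP targets described here are 41 genes chosen by name, of 23337 gene symbols in the expression files. They comprise the coactivators Yap1 and Wwtr1, their DNA-binding partners Tead1 to Tead4, the VGLL cofactors Vgll3 and Vgll4, the kinase cassette, its upstream kinases and scaffolds, the atypical cadherins, the angiomotins, the Ajuba-family LIM proteins (Ajuba is written Jub in the files), the NUAK kinases and 5 known YAP targets. The list holds no CCN genes. All 41 symbols were found, 37 passed the filter on low values, and every member is accounted for below.

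The measurements were RNA sequencing of MOE cells, a line of oviductal epithelium from FVB mice; the oviduct is the mouse counterpart of the fallopian tube. One group, 4 libraries, was plated on 3D collagen, and the other, also 4 libraries, on 2D collagen. Both groups had grown to confluence before trypsin was used to collect them, and both stayed on collagen for 6 h in MOE medium lacking EGF. No label says whether the line is a clone or whether each library had a culture of its own, so the p-values reflect variation among libraries that may be technical only.

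The Hippo pathway is a kinase cascade that restrains the transcriptional coactivators YAP (Yap1) and TAZ (Wwtr1). Kinases of the MST family, helped by Sav1, activate the LATS kinases with their MOB1 cofactors, and LATS phosphorylation keeps YAP and TAZ in the cytoplasm or sends them for degradation. When the cascade is quiet, YAP and TAZ enter the nucleus and act on genes through TEAD factors. Substrate stiffness, cell shape, cell contact and polarity are known inputs, and several targets are themselves pathway regulators, among them Amotl2, Lats2, Wwc1, Ajuba and Nuak2.

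Promoter sequence was examined because TEAD factors are known to bind the letters GGAATG, which read on the other strand as CATTCC. RefSeq windows of 300 bases on GRCm38.p6, from 250 bases before to 50 after a start site, were matched for 33 members, in 39 windows. GGAATG was found on either strand in 19 of these 39 windows (48.7%), against 14.7% of all 32851 windows, and 17 members had it. Of the 12 members past the test's threshold 9 had a window, and 5 of these 9 held GGAATG, as did 12 of the 24 other members with a window. TGANTCA, a loose form of the AP-1 motif with any base at N, was also searched on both strands. It was in 1 of the 39 windows (2.56%), that of F3, against 7.81% of all windows. The CArG box, the motif of SRF, was in 0 of the 39 member windows, against 1.63% of all windows, and no match says only that its letters are not in these windows. The stretches below, read 5′ to 3′ on the gene's strand, show GGAATG or CATTCC in capitals in members past the threshold, with distances counted from the RefSeq start of the window. RefSeq and GENCODE starts can differ: both Wwc2 stretches lie inside the GENCODE span of the gene given further on. All bases of both stretches also lie in a GENCODE exon on that strand, though in no annotated UTR. They are upstream only of the RefSeq start. The matches of Amotl2 and Ankrd1 lie in a UTR of another annotated transcript and are not shown.
Crim1, plus strand, chr17:78200139-78200204, match 79 bases upstream of the start: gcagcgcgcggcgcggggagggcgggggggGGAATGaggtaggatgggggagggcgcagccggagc
Jub, minus strand, chr14:54577790-54577877, matches 186 and 164 bases upstream: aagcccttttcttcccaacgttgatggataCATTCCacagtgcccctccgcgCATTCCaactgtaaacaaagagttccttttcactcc
Wwc2, minus strand, chr8:47990712-47990777, match 203 bases upstream: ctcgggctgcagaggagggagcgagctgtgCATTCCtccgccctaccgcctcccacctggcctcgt
Wwc2, minus strand, chr8:47990588-47990668, matches 94 and 79 bases upstream: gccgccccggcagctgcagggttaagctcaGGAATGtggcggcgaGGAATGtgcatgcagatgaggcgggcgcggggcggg
F3 is shown for its pair of TGANTCA matches in capitals, 146 and 135 bases upstream on the plus strand, chr3:121723361-121723438: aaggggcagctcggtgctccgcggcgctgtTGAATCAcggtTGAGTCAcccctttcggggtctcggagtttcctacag
These matches describe letters in a window and show neither bound sites nor a cause of any difference in mRNA. The share of members with GGAATG was similar among members past the threshold and among the other members. Tead1, Tead4, Stk3, Map4k4, Dchs1, Limd1, Nuak2 and Asap1 had no matched window.

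Depth ranged from 15692699 to 25862036 reads per library, with 14064 to 14598 genes detected. Levels are given as normalized counts, reads divided by 1 size factor per library, and levels of different genes are compared only per kilobase of exonic length. That length merges the exons of all annotated transcripts of a gene, so it can exceed the length of the transcripts expressed. The epithelial label was checked against 8 markers, whose summed level was 4893 to 6545 CPM (reads of a gene scaled to a common library total) on 3D collagen and 5755 to 7136 CPM on 2D collagen. Most of it came from Krt8, Krt18, Krt19 and Pax8. In every library Cdh1 stayed at or below 5.23 CPM, Epcam at or below 1.26 CPM and Cldn7 under 1 CPM. Of the markers in the files, 5 of 7 ciliated-cell, 6 of 8 fibroblast, 7 of 8 leukocyte and 4 of 6 endothelial genes stayed under 1 CPM in every library. The summed levels in 3D and in 2D libraries were 16.6 to 73.7 and 61.5 to 86.7 CPM for ciliated cells, 4.24 to 17.4 and 3.44 to 19.5 CPM for fibroblasts, 242 to 890.2 and 433 to 2154 CPM for smooth muscle (nearly all Acta2), 7.77 to 12.8 and 13.6 to 21.6 CPM for leukocytes (nearly all Csf1r) and 18.8 to 42.1 and 14.7 to 30.6 CPM for endothelium. The ciliated-cell sums were nearly all Foxj1 and Rsph1, the endothelial sums mostly Kdr and the fibroblast sums mostly Dcn and Col1a1. The leukocyte sums did not overlap between the groups, and among all these markers Krt8 fell and Pdgfra, under 1 CPM throughout, rose. Transcripts of intestine and of liver each summed to at most 25.2 CPM, with the liver sum highest in 3D replicate 1 and 2D replicate 2. The part of these markers in the member differences was not tested, and in bulk RNA fewer cells of a type and less RNA per cell cannot be told apart.

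One library stood apart in a way that touched the members. In 2D replicate 2 the deviation of each gene from its mean rose with the GC content of its transcript (Spearman correlation across 11709 genes 0.68, against -0.46 to 0.23 in the other 7 libraries; a description, since genes are not independent replicates). This library was the lowest of all 8 for Yap1, Tead1, Lats1, Stk3, Mob1a, Mob1b, Taok1 and Taok3, and the highest for 7 other members. Its log2 value minus the mean of the other 2D libraries was -3.77 for Taok1 (GC content 40.6%), -3.50 for Stk3 (38.4%), -2.55 for Mob1b (37.9%) and -1.85 for Lats1 (43.0%). The 8 members with a GC content under 45.2%, the lower quartile of tested genes, had a median of -1.57 for this difference, and the other 29 members had a median of -0.00. None of these 8 low-GC members, 0 of 8, passed the threshold described next, which 5.72% of all tested genes passed. At that share so small a group would hold few or no calls, so the count is uninformative. In members past the threshold the same difference for 2D replicate 2 went both ways. It was 0.74 for Tead4, 0.66 for Nuak2, 0.50 for Jub, 0.29 for Nuak1, 0.19 for Wwc1 and 0.086 for Stk4. Below 0 it was -1.04 for Ankrd1, -0.35 for Crim1, -0.17 for F3, -0.14 for Wwc2, -0.080 for Amotl2 and -0.0042 for Asap1. Without this library or with the GC trends removed, several uncalled members moved by over 1.5 times or turned sign, and those values are given with the coactivators, the TEAD factors, the LATS kinases and the members it lowered most.

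**Figure D1:**
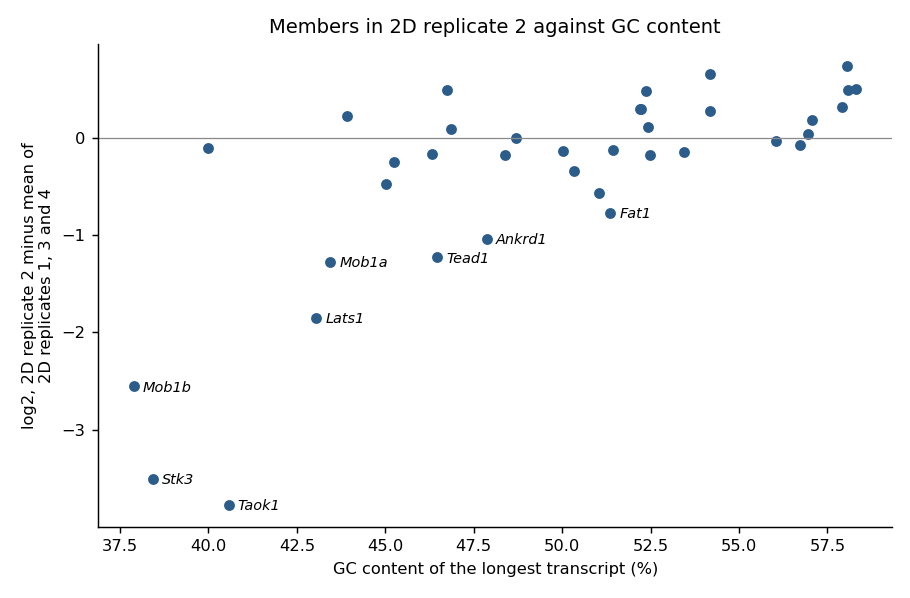
Each point is 1 of the 37 tested members, with the GC content of its longest transcript (%) on the horizontal axis and, on the vertical axis, log2 of 2D replicate 2 minus the mean log2 of 2D replicates 1, 3 and 4. The members of low GC content lie furthest below 0, down to -3.77 for Taok1.

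The members that changed were mostly lower on 3D collagen, and they belonged to several tiers of the pathway. With limma on log2(normalized count + 1), a Benjamini-Hochberg adjusted p under 0.05 over all 11820 tested genes was the threshold for a call. Of the 37 tested members 11 fell on 3D collagen, namely Tead4, Stk4, Wwc1, Wwc2, Amotl2, Jub, Nuak1, Nuak2, Ankrd1, Crim1 and F3. The single member that rose was Asap1, and 25 did not pass. The background over all tested genes was 5.72% called, 3.39% lower and 2.33% higher (401 and 275 genes), against 32.4% of the tested members called. The median log2 fold change, 3D minus 2D throughout, was -0.27 over the members and 0.02 over all tested genes, and 24 members lay below 0 and 13 above. The libraries of the groups did not overlap for 15 members (40.5%), 13 of them lower and 2 higher on 3D collagen, against 18.4% of all tested genes (10.4% lower). The members were chosen with earlier results of these data known, so these shares describe the list and are no independent evidence of its direction.

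The counts of calls depended on single libraries and on scaling. Without 3D replicate 1, 5 members fell and 1 rose (133 and 58 of all genes), and without 2D replicate 3, 5 fell and 1 rose (213 and 180 of all genes). Without 3D replicate 2, 5 fell and 0 rose (143 and 44 of all genes), without 3D replicate 3, 5 fell and 0 rose (104 and 44), and without 3D replicate 4, 7 fell and 1 rose (239 and 187). Without 2D replicate 2, 11 fell and 1 rose (350 and 267 of all genes), and 10 fell and 1 rose when the GC trends were also removed (487 and 406 of all genes). Scaling by library size raised the median of all genes by 0.17 and gave 2 members higher and 7 lower, with 498 genes higher and 318 lower in all. Wwc1, Amotl2, Jub, Nuak1 and Nuak2 passed the threshold, in the same direction, in the main test and in all 19 alternatives run.

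**Figure D2:**
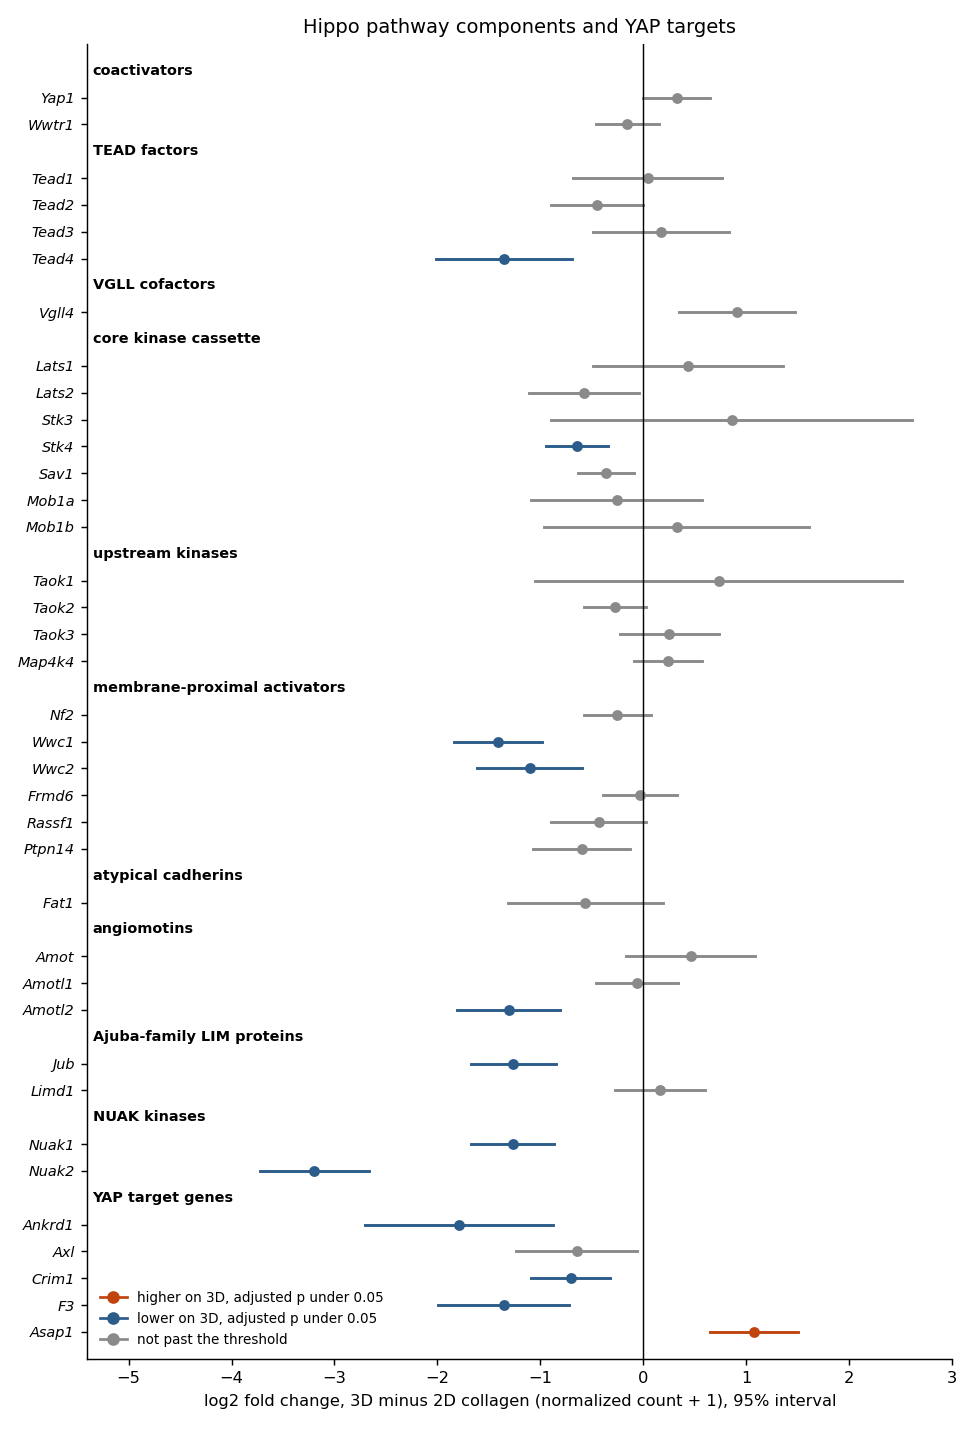
Log2 fold change (3D minus 2D collagen) with its 95% confidence interval from limma for each of the 37 tested members, grouped by role, with members past the threshold marked. The values run from -3.20 for Nuak2 to 1.07 for Asap1, and most of the marked members lie left of 0.

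The coactivators themselves did not pass the threshold. Yap1 (chromosome 9, 7931999 to 8004596, minus strand) had 1299, 1621, 1537 and 1678 normalized counts in the 3D libraries, against 1211, 1074, 1417 and 1206 in the 2D libraries. The groups overlapped, since 3D replicate 1 lay under 2D replicate 3. Its means were 1534 ± 167 on 3D and 1227 ± 141 on 2D collagen (SD, n = 4 each), with a log2 fold change of 0.32 ± 0.15 (SE; 95% confidence interval -0.00 to 0.65; limma adjusted p = 0.210). With the GC trends removed it was 0.16 (limma adjusted p = 0.510). Wwtr1, which encodes TAZ (chromosome 3, 57455649 to 57575910, minus strand), had 1000.0, 1215, 970.2 and 1073 normalized counts in 3D libraries, against 1126, 1328, 1131 and 1151 in 2D libraries. Here too the groups overlapped, and 2D replicate 2 was the highest library. The means were 1065 ± 109 on 3D and 1184 ± 96.7 on 2D collagen, with a log2 fold change of -0.16 ± 0.14 (SE; interval -0.46 to 0.15; limma adjusted p = 0.522). Scaling by library size turned the sign of the Wwtr1 value (0.018), and removing the GC trends gave -0.35 (limma adjusted p = 0.345). Per kilobase, Wwtr1 was the more abundant of the pair, at 223 ± 22.9 normalized counts on 3D and 248 ± 20.2 on 2D collagen, against 166 ± 18.0 and 133 ± 15.3 for Yap1. This order rests on the merged exonic lengths, 4779 bases for Wwtr1 and 9257 for Yap1. Not divided by length, the mean counts of Yap1 were the higher on both substrates.

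Among the TEAD factors, which carry YAP and TAZ to DNA, Tead4 fell and Tead1, Tead2 and Tead3 did not pass. Tead4 (chromosome 6, 128224288 to 128300823, minus strand) had 147, 164, 151 and 218 normalized counts in 3D libraries, against 272, 632, 356 and 563 in 2D libraries. All 3D libraries lay below all 2D libraries, and the 2D libraries were the more scattered. The means were 170.0 ± 32.6 on 3D and 455 ± 169.6 on 2D collagen, a 2.56-fold lower level (log2 fold change -1.35 ± 0.29 SE; interval -2.01 to -0.69; limma adjusted p = 0.0308). The limma call was lost without 2D replicate 3 (adjusted p = 0.0536), 2D replicate 4 (0.0667), 3D replicate 1 (0.0887), 3D replicate 2 (0.0925) or 3D replicate 3 (0.109), and without 2D replicate 2 when the GC trends were removed (0.0546); over all alternatives the adjusted p ran from 0.000224 to 0.109.

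Tead2 (chromosome 7, 45215753 to 45233644, plus strand) was the most abundant TEAD factor, with 1289, 1387, 1425 and 1859 normalized counts in 3D libraries, against 1664, 2378, 1613 and 2579.9 in 2D libraries. The groups overlapped through 3D replicate 4. The means were 1490.2 ± 253 on 3D and 2059 ± 493 on 2D collagen, with a log2 fold change of -0.45 ± 0.20 (SE; interval -0.90 to -0.00; limma adjusted p = 0.206), or -0.23 with the GC trends removed. Tead1 (chromosome 7, 112679318 to 112906807, plus strand) had 503, 652, 518 and 714 normalized counts in 3D libraries, against 636, 302, 984 and 572 in 2D libraries. The 2D libraries enclosed the 3D ones, with 2D replicate 2 lowest and 2D replicate 3 highest. The means were 597 ± 103 on 3D and 624 ± 280.4 on 2D collagen (log2 fold change 0.04 ± 0.32 SE; interval -0.69 to 0.77; limma adjusted p = 0.955), and the value was -0.27 without 2D replicate 2. Tead3 (chromosome 17, 28331671 to 28350817, minus strand) was the scarcest, with 191, 164, 145 and 102 normalized counts in 3D libraries, against 123, 168, 158 and 88.2 in 2D libraries. Its groups overlapped over most of their range (means 151 ± 37.4 on 3D and 134 ± 36.5 on 2D collagen; log2 fold change 0.17 ± 0.30 SE; interval -0.49 to 0.83; limma adjusted p = 0.768), and the value was 0.39 with the GC trends removed.

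Per kilobase the make-up of the TEAD mRNA pool could be set out within each library. Tead2 made up 73.1% ± 2.05 of the summed TEAD level on 3D and 68.8% ± 3.86 on 2D collagen (SD, n = 4 each). The share of Tead4 was 10.9%, 11.2%, 10.5% and 11.7% in 3D libraries, against 15.5%, 24.4%, 18.6% and 20.8% in 2D libraries. These shares did not overlap, and the 3D libraries lay close together, but the difference did not pass (exact permutation p = 0.0286, 0.114 after adjustment over the 4 factors). That p of 0.0286 is the smallest this test allows with 4 libraries per group. The other factors had exact permutation p of 0.114 to 0.343. Given these, no separation of the Tead4 share could bring its adjusted value below 0.114, so the miss is uninformative. Tead1 held 10.3% ± 0.992 on 3D and 7.99% ± 4.62 on 2D collagen, and Tead3 5.48% ± 1.92 and 3.35% ± 1.14. The highest Tead4 share, 24.4%, and the lowest Tead1 share, 3.09%, were both in 2D replicate 2, the library with the strong GC trend. Its log2 difference from the mean of the other 2D libraries was 0.74 for Tead4 and -1.23 for Tead1. The shares were not corrected for GC content. The summed level was 425 ± 62.7 normalized counts per kilobase on 3D and 623 ± 132 on 2D collagen (exact permutation p = 0.0571). On 3D collagen Tead1 and Tead4 took shares of like size, and on 2D collagen Tead4 exceeded Tead1 in every library.

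**Figure D3:**
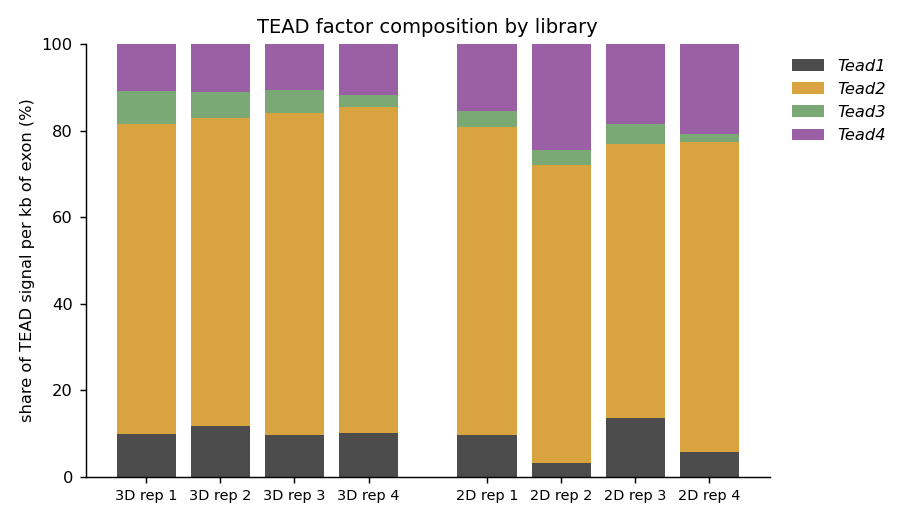
Share (%) of each TEAD factor in the summed TEAD level per kilobase, 1 stacked bar per library, 3D libraries on the left and 2D libraries on the right. Tead2 fills most of every bar, and the Tead4 segment is narrower in the 3D libraries (10.5% to 11.7%) than in the 2D libraries (15.5% to 24.4%).

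VGLL proteins compete with YAP and TAZ for TEAD factors. Vgll4, a repressor of TEAD activity (chromosome 6, 114860628 to 114969994, minus strand), had 730.4, 913, 659.5 and 612 normalized counts in 3D libraries, against 434, 376, 534 and 245 in 2D libraries. Its groups did not overlap, yet it did not pass the threshold (means 729 ± 132 on 3D and 397 ± 121 on 2D collagen; log2 fold change 0.91 ± 0.25 SE; interval 0.35 to 1.47; limma adjusted p = 0.0643). It passed with DESeq2 (adjusted p = 0.0150), with library-size scaling (limma 0.0355) and with the GC trends removed (limma 0.0258). Vgll3, another TEAD cofactor, had 0 reads in all 8 libraries, which allows up to 0.0191 CPM over the summed depth (3 counts) and 0.116 to 0.191 CPM in a single library, counting error only.

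In the core cassette the MST1 gene Stk4 fell, and the LATS kinases did not pass. Stk4 (chromosome 2, 164070322 to 164155524, plus strand) had 1459, 1643, 1485 and 1535 normalized counts in 3D libraries, against 2699.8, 2500.1, 2335 and 2073 in 2D libraries. The 3D libraries were tightly grouped and all lay below the 2D ones. The means were 1531 ± 81.5 on 3D and 2402 ± 265 on 2D collagen, a 1.56-fold lower level (log2 fold change -0.64 ± 0.13 SE; interval -0.94 to -0.35; limma adjusted p = 0.0257). The limma call was lost without 2D replicate 3 (adjusted p = 0.0542), 3D replicate 1 (0.0837), 3D replicate 2 (0.0716), 3D replicate 3 (0.103) or 3D replicate 4 (0.0543) and with library-size scaling (0.0711); all alternatives ran from 0.000172 to 0.103.

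Lats1 (chromosome 10, 7681214 to 7716460, plus strand), a kinase that phosphorylates YAP and TAZ, had 593, 768, 607 and 876 normalized counts in 3D libraries, against 751, 197, 749 and 649.6 in 2D libraries. The groups overlapped and 2D replicate 2 was by far the lowest. Its means were 711 ± 136 on 3D and 587 ± 264 on 2D collagen (log2 fold change 0.44 ± 0.41 SE; interval -0.49 to 1.36; limma adjusted p = 0.558), and the log2 fold change was -0.026 without 2D replicate 2 and 0.22 with the GC trends removed. Lats2 (chromosome 14, 57689662 to 57758388, minus strand), its paralog and a known YAP target, had 297, 458, 395 and 460.0 normalized counts in 3D libraries, against 676, 690.4, 671 and 389.7 in 2D libraries. 2D replicates 1, 2 and 3 lay together above all 3D libraries, and 2D replicate 4 lay among the 3D libraries. The means were 402 ± 76.8 on 3D and 607 ± 145 on 2D collagen (log2 fold change -0.57 ± 0.24 SE; interval -1.11 to -0.04; limma adjusted p = 0.180). The gene model Gm49361 on the same strand covers 42.4% of the exonic bases of Lats2, so its count is uncertain.

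The other cassette genes did not pass. Stk3, which encodes MST2, had 262, 311, 285 and 441 normalized counts in 3D libraries, against 550.1, 27.5, 192 and 316 in 2D libraries. Its 2D libraries ranged widely around the 3D ones, with 2D replicate 2 lowest (log2 fold change 0.86 ± 0.78 SE; limma adjusted p = 0.543; -0.020 without that library). Mob1a had 297, 382, 300.4 and 478 normalized counts in 3D libraries, against 743, 219.8, 347 and 592 in 2D libraries. Mob1b had 123, 147, 97.0 and 180.2 normalized counts in 3D libraries, against 159, 27.5, 149 and 195 in 2D libraries. Both MOB1 genes, cofactors of LATS, overlapped between the groups, with limma adjusted p of 0.711 for Mob1a and 0.775 for Mob1b. Their log2 fold changes were -0.26 and 0.32, or -0.58 and -0.32 without 2D replicate 2. Sav1, the scaffold that joins MST to LATS, had 1191, 1249, 1174 and 1351 normalized counts in 3D libraries, against 1713, 1505, 1598 and 1565 in 2D libraries. Its groups did not overlap (log2 fold change -0.36 ± 0.12 SE; limma adjusted p = 0.112), and it passed with DESeq2 (adjusted p = 0.0298). An antisense gene, Atl1, covers 25.4% of the exonic bases of Sav1. The strand setting of the counting is not given, so how reads in that overlap were counted is not known.

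The upstream kinases Taok1, Taok2, Taok3 and Map4k4, which phosphorylate MST or LATS kinases, all missed the threshold, with limma adjusted p between 0.248 and 0.619. Taok2 averaged 996 ± 31.9 normalized counts on 3D and 1211 ± 149 on 2D collagen, and its groups did not overlap. Taok1 averaged 404 ± 126 on 3D and 350.1 ± 217 on 2D collagen, where 2D replicate 2 held 32.3, and its log2 fold change was 0.73 with that library and -0.21 without it. Taok3 averaged 1630.2 ± 145 on 3D and 1415 ± 425 on 2D collagen. Map4k4 averaged 1799 ± 134 on 3D and 1532 ± 219 on 2D collagen.

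Near the membrane, the KIBRA-family scaffolds Wwc1 and Wwc2, which help activate LATS, both fell. Wwc1 (KIBRA; chromosome 11, 35838400 to 35980527, minus strand) had 1745, 2088, 2101 and 2184 normalized counts in 3D libraries, against 5236, 5934, 6959 and 3899 in 2D libraries. The groups lay far apart. The means were 2029 ± 194 on 3D and 5507 ± 1285 on 2D collagen, a 2.66-fold lower level (log2 fold change -1.41 ± 0.19 SE; interval -1.84 to -0.99; limma adjusted p = 0.00548). Wwc2 (chromosome 8, 47823959 to 47990924, minus strand) had 649, 1076, 971 and 1209 normalized counts in 3D libraries, against 2165, 1900.5, 2648 and 1612 in 2D libraries. It was lower in every 3D library than in any 2D library. Its means were 976 ± 239 on 3D and 2081 ± 440.2 on 2D collagen, 2.15-fold lower (log2 fold change -1.10 ± 0.23 SE; interval -1.61 to -0.60; limma adjusted p = 0.0255), and the antisense gene Cldn22 covers 7.22% of its exonic bases. The limma call of Wwc2 was lost without 2D replicate 1 (adjusted p = 0.0524), 2D replicate 3 (0.0588), 3D replicate 1 (0.0618), 3D replicate 2 (0.0677) or 3D replicate 3 (0.0845) and with library-size scaling (0.0665); all alternatives ran from 0.000460 to 0.0845. Per kilobase Wwc1 was the more abundant, at 409 ± 39.1 normalized counts on 3D and 1110.3 ± 259 on 2D collagen, against 70.8 ± 17.3 and 151 ± 31.9 for Wwc2.

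The other membrane-proximal members and the cadherins did not pass. Nf2, which encodes the scaffold Merlin, averaged 1191 ± 98.8 normalized counts on 3D and 1425 ± 194 on 2D collagen (limma adjusted p = 0.320). Frmd6, a FERM-domain partner of the pathway, averaged 495 ± 56.0 on 3D and 506 ± 57.9 on 2D collagen, and its log2 fold change of -0.03 turned to 0.14 with library-size scaling. Rassf1, an MST-binding protein, averaged 468 ± 23.9 on 3D and 652 ± 192 on 2D collagen (limma adjusted p = 0.233, and 0.0430 with the GC trends removed), with 42.7% of its exonic bases under the antisense model Gm9917. Ptpn14, a phosphatase that binds YAP, averaged 4732 ± 818 on 3D and 7295 ± 2097 on 2D collagen (log2 fold change -0.60 ± 0.21 SE; limma adjusted p = 0.127), with 10410.0 in 2D replicate 3. Fat1, an atypical cadherin upstream of the cascade, averaged 5224 ± 1034 on 3D and 8433 ± 4821 on 2D collagen, where 2D replicate 3 held 15503 (limma adjusted p = 0.337). Fat4 had 2 reads in all, 1 each in 3D replicate 1 and 2D replicate 3, and its ligand Dchs1 had 0 reads in all 8 libraries, under the same floor as Vgll3.

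The angiomotins hold YAP and TAZ at junctions and actin, and Amotl2 was the member of the family that fell. Amotl2 (chromosome 9, 102716672 to 102733418, plus strand) had 2075, 4058, 3862 and 3466 normalized counts in 3D libraries, against 7632, 7742, 9726 and 7381 in 2D libraries. The groups were well separated, and 3D replicate 1 was the lowest. The means were 3365 ± 895 on 3D and 8120.0 ± 1081 on 2D collagen, a 2.48-fold lower level (log2 fold change -1.31 ± 0.22 SE; interval -1.81 to -0.81; limma adjusted p = 0.0144). Amotl1 had 974, 1437, 1122 and 1255 normalized counts in 3D libraries, against 1146, 1162, 1599 and 1108 in 2D libraries. Its groups overlapped (log2 fold change -0.06; limma adjusted p = 0.857), and library-size scaling turned the value to 0.11. Amot averaged 437 ± 90.3 on 3D and 326 ± 112 on 2D collagen (log2 fold change 0.46; limma adjusted p = 0.353). Amotl2 carried 535 ± 142 normalized counts per kilobase on 3D and 1291 ± 172 on 2D collagen, against 119 and 125 for Amotl1.

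Among the Ajuba-family LIM proteins, which bind and inhibit LATS, Jub fell and Limd1 did not pass. Jub (Ajuba; chromosome 14, 54567472 to 54577558, minus strand) had 2648, 2846, 3014 and 2122 normalized counts in 3D libraries, against 5520.3, 8188, 6611 and 5352 in 2D libraries. Every 3D library lay below every 2D library. The means were 2657 ± 387 on 3D and 6418 ± 1305 on 2D collagen, a 2.40-fold lower level (log2 fold change -1.26 ± 0.18 SE; interval -1.67 to -0.85; limma adjusted p = 0.00719). Limd1 had 3367, 3616, 3203 and 2932 normalized counts in 3D libraries, against 2659, 3749.5, 3456 and 2117 in 2D libraries. The 3D values of Limd1 all fell inside the 2D range (log2 fold change 0.16; limma adjusted p = 0.654). Wtip, the remaining family member, had 0 reads in all 8 libraries.

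Both NUAK kinases, relatives of AMPK that are known to act on actomyosin and, for NUAK2, to be a YAP target that feeds back on LATS, fell. Nuak2 (chromosome 1, 132316126 to 132333488, plus strand) had 462, 543, 574 and 443 normalized counts in 3D libraries, against 4077, 6489, 5645 and 3026 in 2D libraries. This was the widest separation among the members. The means were 505 ± 63.0 on 3D and 4809 ± 1553 on 2D collagen, a 9.16-fold lower level (log2 fold change -3.20 ± 0.24 SE; interval -3.73 to -2.66; limma adjusted p = 0.000647). Nuak1 (chromosome 10, 84370905 to 84440597, minus strand) had 564, 819.8, 720.2 and 673 normalized counts in 3D libraries, against 1617, 1930.3, 1892 and 1284 in 2D libraries. Here too no library of the groups overlapped. The means were 694 ± 106 on 3D and 1681 ± 299 on 2D collagen, 2.41-fold lower (log2 fold change -1.27 ± 0.18 SE; interval -1.67 to -0.86; limma adjusted p = 0.00661). Per kilobase both genes had like levels on 3D collagen, 129 ± 16.1 for Nuak2 and 123 ± 18.9 for Nuak1, while on 2D collagen they had 1227 ± 396 and 299 ± 53.1.

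Of the 5 YAP targets, Ankrd1, F3 and Crim1 fell, Asap1 rose and Axl did not pass. Ankrd1, a nuclear ankyrin-repeat protein widely used as a YAP readout (chromosome 19, 36111961 to 36120099, minus strand), had 436, 1082, 1056 and 1129 normalized counts in 3D libraries, against 5788, 1748, 2935 and 2737 in 2D libraries. The groups did not overlap, with 3D replicate 1 far below the other 3D libraries and 2D replicate 1 far above the other 2D libraries. The means were 926 ± 328 on 3D and 3302 ± 1737 on 2D collagen, a 3.46-fold lower level (log2 fold change -1.79 ± 0.41 SE; interval -2.71 to -0.88; limma adjusted p = 0.0358). The limma call was lost without 2D replicate 1 (adjusted p = 0.0577), 2D replicate 3 (0.0735), 2D replicate 4 (0.0659), 3D replicate 1 (0.0796), 3D replicate 2 (0.0827), 3D replicate 3 (0.0934) or 3D replicate 4 (0.0529) and with library-size scaling (0.0732); all alternatives ran from 0.000234 to 0.0934.

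F3, which encodes tissue factor, the starter of coagulation (chromosome 3, 121723537 to 121735048, plus strand), had 833, 805, 977 and 516 normalized counts in 3D libraries, against 3069.8, 1794, 2059.5 and 1292 in 2D libraries. The libraries numbered 4 were the lowest of their groups, and the groups did not overlap. The means were 783 ± 193 on 3D and 2054 ± 748 on 2D collagen, 2.56-fold lower (log2 fold change -1.36 ± 0.28 SE; interval -1.99 to -0.72; limma adjusted p = 0.0276). The limma call was lost without 2D replicate 3 (adjusted p = 0.0639), 3D replicate 1 (0.0733), 3D replicate 2 (0.0787), 3D replicate 3 (0.0661) or 3D replicate 4 (0.0507). Crim1, a membrane protein that binds BMPs (chromosome 17, 78200248 to 78376592, plus strand), had 1017, 1246, 1073 and 1077 normalized counts in 3D libraries, against 1866, 1497, 2371 and 1561 in 2D libraries. The 3D libraries lay close together below the 2D ones. The means were 1103 ± 99.0 on 3D and 1824 ± 399 on 2D collagen, 1.63-fold lower (log2 fold change -0.70 ± 0.17 SE; interval -1.09 to -0.32; limma adjusted p = 0.0456). This call was the closest to the threshold: with limma it was lost without 2D replicate 1 (adjusted p = 0.0769), 2D replicate 3 (0.0783), 2D replicate 4 (0.0561), 3D replicate 1 (0.121), 3D replicate 2 (0.0925), 3D replicate 3 (0.143) or 3D replicate 4 (0.0865), with TMM scaling (0.0538), with library-size scaling (0.132) and with no filter (0.0621). It was also lost with edgeR (adjusted p = 0.0505), and all alternatives ran from 0.00450 to 0.143.

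Asap1, a GTPase-activating protein for ARF GTPases at focal adhesions (chromosome 15, 64086857 to 64382919, minus strand), had 596, 884, 698 and 882 normalized counts in 3D libraries, against 294, 357, 401 and 389.7 in 2D libraries. All 3D libraries lay above all 2D libraries. The means were 765 ± 143 on 3D and 360.5 ± 48.0 on 2D collagen (log2 fold change 1.07 ± 0.19 SE; interval 0.65 to 1.50; limma adjusted p = 0.0160), and the limma call was lost without 3D replicate 2 (adjusted p = 0.0637) or 3D replicate 3 (0.0577). Axl, a receptor tyrosine kinase for Gas6, had 8165, 9008, 7646 and 12157 normalized counts in 3D libraries, against 9585, 16445, 12228 and 21388 in 2D libraries. Its groups overlapped, and replicate 4 was the highest of each. Its log2 fold change was -0.65 ± 0.26 (SE; limma adjusted p = 0.172). Axl was the most abundant member per kilobase, with means of 1837 normalized counts on 3D and 2963 on 2D collagen.

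**Figure D4:**
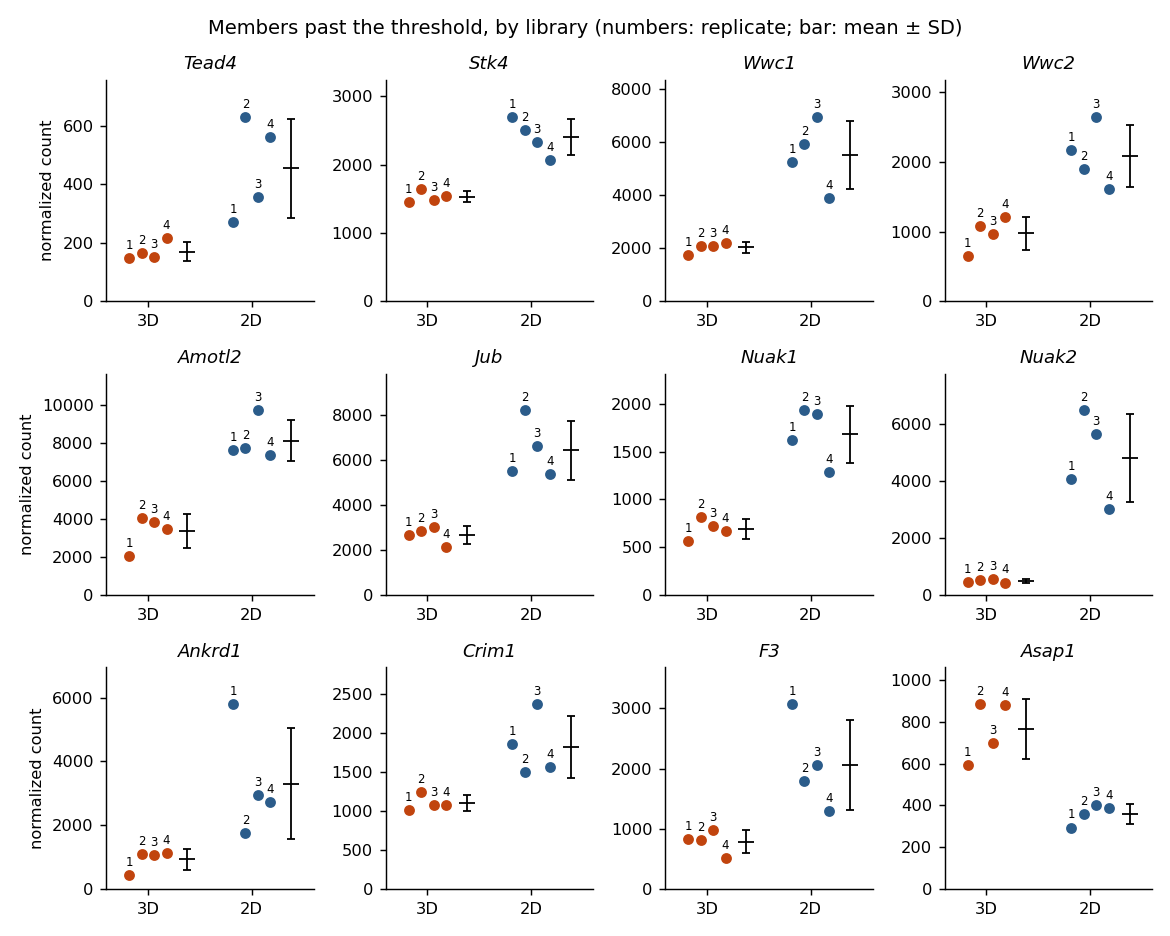
Normalized counts of the 12 members past the threshold, 1 panel per gene with its own axis from 0, points numbered by replicate, 3D libraries left of 2D libraries, bars for the mean ± SD (n = 4 each). In every panel the groups do not overlap; Asap1 is higher on 3D collagen and the other 11 genes, Nuak2 by the widest margin, are lower.

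For some families the ratio between paralogs separated the substrates, although no pair passed after adjustment. The log2 ratio of normalized counts was taken within each library, where the scaling of the library largely cancels, and an exact two-sided permutation test over libraries was run for 8 pairs, whose smallest possible p is 0.0286. The groups did not overlap for 4 of the 8 pairs. For Nuak2 over Nuak1 the log2 ratio was -0.29, -0.59, -0.33 and -0.60 in 3D libraries, against 1.33, 1.75, 1.58 and 1.24 in 2D libraries, a difference of -1.93. For Jub over Limd1 it was -0.35, -0.35, -0.09 and -0.47 in 3D libraries, against 1.05, 1.13, 0.94 and 1.34 in 2D libraries, a difference of -1.42. All 3D libraries lay below all 2D libraries in both pairs. Per kilobase, Jub exceeded Limd1 in all 8 libraries (a ratio of 1.19 to 1.55 in 3D and 3.16 to 4.17 in 2D libraries), and the ratio of Nuak2 to Nuak1 was 0.944 to 1.18 in 3D and 3.38 to 4.82 in 2D libraries.

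For Amotl2 over Amotl1 the log2 ratio was 1.09, 1.50, 1.78 and 1.47 in 3D libraries, against 2.73, 2.73, 2.60 and 2.73 in 2D libraries, a difference of -1.24. The 2D libraries were nearly alike, and all 3D libraries lay below them. For Wwtr1 over Yap1 it was -0.38, -0.42, -0.66 and -0.65 in 3D libraries, against -0.10, 0.31, -0.32 and -0.07 in 2D libraries, a difference of -0.48. Each of these 4 pairs had an exact permutation p of 0.0286, or 0.0571 after Benjamini-Hochberg adjustment over the 8 pairs, so 0 of 8 passed 0.05. With only 4 pairs at the smallest possible p, the adjusted value could not fall below 0.0571, so the miss is uninformative for them. The other 4 pairs overlapped between the groups. Their differences in log2 ratio were -1.01 for Lats2 over Lats1, 1.50 for Stk3 over Stk4, -0.58 for Mob1a over Mob1b and -0.31 for Wwc1 over Wwc2, with adjusted exact p of 0.0914, 0.131, 0.257 and 0.131. In 2D replicate 2 the Stk3 over Stk4 ratio was -6.46 and the Lats2 over Lats1 ratio 1.80, the extremes of their groups. Without that library the differences were -0.47 for Lats2 over Lats1, 0.60 for Stk3 over Stk4 and -0.26 for Mob1a over Mob1b.

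**Figure D5:**
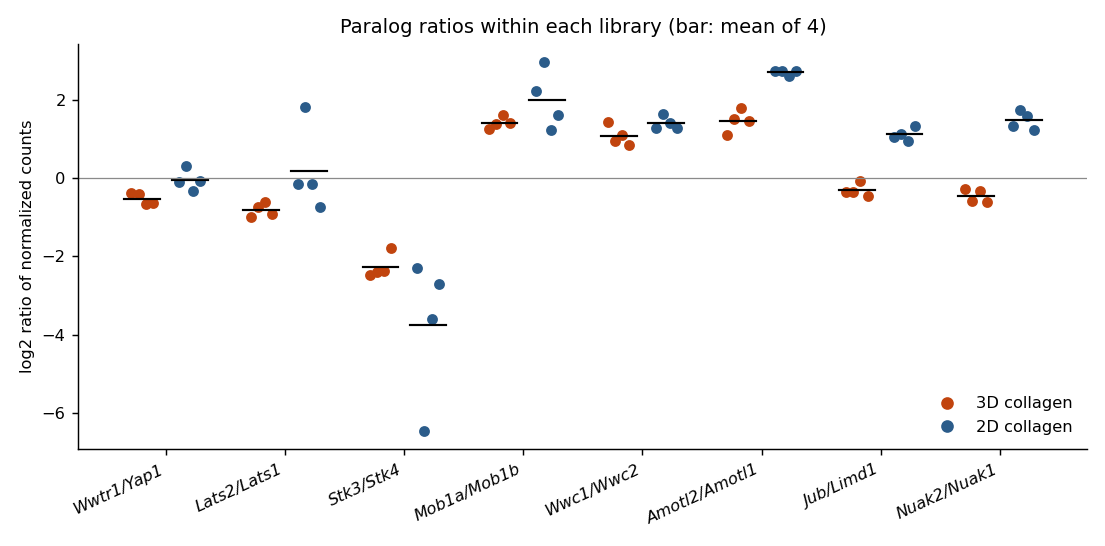
Log2 ratio of normalized counts of the genes in each of 8 paralog pairs, 1 point per library, 3D libraries left of 2D libraries, bar for the mean of 4. The 3D points lie below the 2D points without overlap for Nuak2/Nuak1, Jub/Limd1, Amotl2/Amotl1 and Wwtr1/Yap1 (the height of 0 depends on the lengths of the genes), and Stk3/Stk4 has its lowest point, -6.46, in 2D replicate 2.

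Genes of the wider pathway, 67 tested in 6 lists chosen by function, were set beside all tested genes. Of these 67, 0 rose and 2 fell (2.99%, against 5.72% of all tested genes), and their median log2 fold change was -0.12. So small a count of calls does not set the lists apart from all tested genes. The groups did not overlap for 13 of the 67 (19.4%), against 18.4% of all tested genes. At an unadjusted limma p under 0.05 there were 23 (34.3%), against 24.2% of all tested genes. edgeR called 0 higher and 2 lower, against 308 and 369 of all genes, and DESeq2 called 3 higher and 6 lower, against 708 and 871 of all genes. None of the 12 STRIPAK genes (the phosphatase complex that opposes MST), none of the 18 other kinases and adaptors, none of the 15 genes of YAP retention and turnover and none of the 3 other FAT and VGLL genes passed. Lists of these sizes would hold few or no calls at the 5.72% share of all tested genes.

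Of the 11 polarity genes 1 passed. Prkci, the atypical protein kinase C of the Par complex (chromosome 3, 30995747 to 31052959), had 579, 849, 772 and 936 normalized counts in 3D libraries, against 3805, 2699.6, 2507 and 2521 in 2D libraries. The groups lay far apart. Its means were 784 ± 152 on 3D and 2883 ± 621 on 2D collagen (log2 fold change -1.88 ± 0.20 SE; interval -2.32 to -1.43; limma adjusted p = 0.00232).

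Of the 8 other genes of the YAP and TAZ signature 1 passed. Arhgef17 (chromosome 7, 100869752 to 100932107) had 1638, 2432, 1979 and 2111 normalized counts in 3D libraries, against 3191, 5121, 4401 and 3882 in 2D libraries. All 3D libraries lay below all 2D libraries. Its means were 2039.6 ± 329 on 3D and 4149 ± 816 on 2D collagen (log2 fold change -1.02 ± 0.19 SE; limma adjusted p = 0.0181), and the limma call was lost without 3D replicate 1 (adjusted p = 0.0593) or 3D replicate 3 (0.0711). The list's log2 fold changes went both ways, from -1.02 to 0.98, with a median of 0.29. Myof, a membrane-repair protein named after its value was seen, averaged 11112 ± 1840 on 3D and 6294 ± 1765 on 2D collagen without overlap (log2 fold change 0.85 ± 0.23 SE; limma adjusted p = 0.0610). Such a lack of overlap was seen in 18.4% of all tested genes.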

How the data were processed

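RNA was extracted with TRIzol and sequenced on Illumina libraries, per the labels' protocols. Per the submitters' processing notes, HTSeq 0.6.1p1, DESeq2 and the mm10 build were used. The sources used here do not give the aligner, annotation, strand setting or filters. What the authors deposited is a signal per gene, normalized between libraries. Dividing by the smallest step gave whole reads for 100% of values in each library (tolerance 0.001 reads), and each library's divisor equalled its recomputed median-of-ratios size factor within 3.4e-09, so the values are reads over a size factor.

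Fits used limma 3.58.1 (R 4.3.3) on log2(normalized count + 1), a scale that understates changes of low genes, with a trended, robust prior, for genes at 10 or more normalized counts in at least 4 libraries. P-values were adjusted by Benjamini-Hochberg over all 11820 tested genes. edgeR 4.0.16 and DESeq2 1.42.0 served as alternatives, on the recovered reads. Steps were tested on simulated data. Gene positions, exonic lengths, overlaps and GC content came from GENCODE M21 on GRCm38, where 22873 symbols matched, 1920 of them through older symbols; promoters came from RefSeq. GC trends were removed with a lowess curve (span 30%) per library.

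The members and lists were chosen with earlier results of these data known. The rule for named genes took every member, with full values for members past the threshold, the coactivators, the LATS kinases and the TEAD factors, per-library values for paralog pairs, and every gene of the other lists past the threshold. The alternatives tried were other scalings, filters, pseudocounts, tools, the replicate number as a block, leaving out each library and, added after seeing the data, leaving out 2D replicate 2 with GC trends removed.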

Additional observations from a re-analysis of the deposited data

Results flagged for a closer look

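Values were looked at again where the highest or lowest of 4 libraries lay so far from the nearest other that the gap took up most of the group's range (Dixon's test at its 95% critical value). Of 90 groups of libraries tested, 8 met this, and chance gives about 1 in 20. The causes were not tested.

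On 3D collagen, Ankrd1 was low in replicate 1, at 436 normalized counts, against 1056 to 1129 in the other 3D libraries, and the Stk3 over Stk4 log2 ratio was high in replicate 4, at -1.80, against -2.47 to -2.38. On 2D collagen, 3 members were high in replicate 3, Ptpn14 at 10410.0 normalized counts (5847 to 6463 in the other 2D libraries), Amotl1 at 1599 (1108 to 1162) and Amotl2 at 9726 (7381 to 7742). The Amotl2 over Amotl1 log2 ratio was low in the same library, at 2.60, against 2.73 in each of the others. Wwtr1 was high in 2D replicate 2, at 1328 normalized counts (1126 to 1151 in the others), and Lats2 was low in 2D replicate 4, at 389.7 (671 to 690.4). These libraries all entered the comparisons above.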

How the results depend on the processing

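With the limma fit described above 275 genes were higher and 401 lower, among them 1 and 11 members and 0 and 2 other pathway genes. Library-size scaling gave 498 genes higher, 2 members higher, 7 members lower and 2 other pathway genes higher. On the recovered reads edgeR gave 308 genes higher and 369 lower, and 1 member higher and 10 lower. DESeq2 gave 708 genes higher, 871 lower, 2 members higher, 3 other pathway genes higher and 6 lower. Removing GC trends gave 481 genes higher, 605 lower, 2 members higher, 2 other pathway genes higher and 5 lower. Leaving out each library in turn gave 44 to 267 genes higher and 104 to 370 lower, 0 to 1 members higher and 5 to 11 lower, and 0 to 1 other pathway genes higher and 1 to 3 lower. The 8 paralog differences kept their signs under other pseudocounts and without each library, though those of Lats2 over Lats1, Stk3 over Stk4 and Mob1a over Mob1b moved by over 1.5 times without 2D replicate 2; 3 against 4 libraries allow no exact p below 0.0571.

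With the replicate number as a block, limma called 663 genes higher and 742 lower, 2 members higher and 5 and 7 other pathway genes higher and lower; Ankrd1 lost its call (adjusted p = 0.0807) and Vgll4 (0.0311) and Axl (0.0390) passed. The deviations of same-numbered libraries correlated at -0.17, 0.37, 0.25 and 0.81 for replicates 1 to 4. 3D replicates 2, 3 and 4 correlated best with the 2D library of their own number, and 3D replicate 1 with 2D replicate 2 (0.45). The labels state no pairing and the match did not hold for every number, so the numbers were not taken to pair the libraries. A pairing of some libraries remains possible.

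For the 12 called members, 183 of the values under an alternative kept their call and 45 lost it, and none turned its sign. Signs turned only for uncalled members, in 26 values. Without each library in turn, the log2 fold change ran from -0.27 to 0.30 for Tead1, -0.015 to 0.34 for Tead3, -0.026 to 0.61 for Lats1, -0.020 to 1.40 for Stk3, -0.58 to 0.0036 for Mob1a, -0.32 to 0.61 for Mob1b, -0.21 to 1.11 for Taok1, -0.084 to 0.048 for Frmd6 and -0.16 to 0.058 for Amotl1. The lowest of these values for Tead1, Lats1, Stk3, Mob1a, Mob1b and Taok1 came without 2D replicate 2. With GC trends removed and that library left out, it was -0.33 for Tead1, -0.059 for Lats1, -0.27 for Mob1b and -0.20 for Taok1. Removing GC trends alone gave -0.10 for Tead1 and -0.060 for Mob1b. Library-size scaling gave 0.018 for Wwtr1, 0.14 for Frmd6 and 0.11 for Amotl1, TMM scaling 0.0057 for Frmd6, edgeR -0.029 for Tead1 and 0.0042 for Frmd6, and DESeq2 -0.062 for Tead1. The cause of these changes was not tested. With 4 libraries per group, members such as Vgll4 and Sav1, whose groups do not overlap, lie near the threshold, and a miss does not show equal levels.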
